A study of Mus musculus with 6 samples.

Results

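Long noncoding RNAs of the nucleus and of neurons were examined in retinal ganglion cells (RGCs), the neurons whose axons form the optic nerve, at an age before and an age after birth. The 9 genes, of the 24060 in the count table, were listed by symbol with no measured value in the rule: Malat1, Neat1, Miat, Rmst, Snhg11, Snhg1, Gas5, Pantr1 and Dlx6os1. RNA-seq had been run on RGCs of wildtype C57BL/6 mice at embryonic day 18 (E18; replicates 1, 3 and 4) and at postnatal day 5 (P5; replicates 6, 8 and 9), with no treatment or altered allele at either age. The cells were taken from papain-dissociated retinas by immunopanning, in which macrophages are first removed and cells are then held on dishes by an antibody against Thy1 (CD90). The comparison of these ages addresses what differs between RGCs that still extend axons rapidly and RGCs that no longer do. Nothing states whether the 3 samples of an age came from separate litters or pools, so p-values measure the spread between these samples, which may be partly technical.

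Long noncoding RNAs are transcribed and often spliced like messenger RNAs but encode no known protein, and many stay in the nucleus. Malat1 is held in nuclear speckles, where splicing factors are stored, and Neat1 is the scaffold of a different nuclear body, the paraspeckle. Miat (Gomafu) and Rmst are made mainly by neurons and their precursors, Snhg1, Snhg11 and Gas5 are hosts whose introns release small nucleolar RNAs (snoRNAs), and Pantr1 and Dlx6os1 (Evf2) lie beside developmental homeobox genes.

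Between 81213639 and 114512853 reads per library were counted on genes. The RGC markers, led by the neurofilament gene Nefl, summed to 8542 to 9760 CPM (a gene's reads scaled to a common library size, the usual unit of this count test) at E18 and 8916 to 10260 CPM at P5, and all 13 were detected. By the test described below, 3 of the 13 were higher at E18 and 5 were lower, against 20.8% and 22.5% of all tested genes. Nefl had a mean of 1815 CPM at E18 and 2914 CPM at P5, so the sums hide differences in both directions. Other cells differed among the E18 libraries: amacrine markers, led by Tfap2b, summed to 97.1, 199.6 and 14.7 CPM in E18 replicates 1, 3 and 4 against 19.2 to 28.8 CPM at P5. Progenitor markers, led by Ccnd1, summed to 243.9, 62.9 and 28.8 CPM in those E18 replicates against 15.3 to 20.9 CPM at P5, and dividing cell markers, led by Pcna, to 309.4, 121.1 and 73.1 CPM against 53.5 to 69.4 CPM. E18 replicate 4 thus had the lowest of these 3 marker sums among the E18 libraries. Its amacrine sum lay below the P5 range, although Tfap2b itself, at 1.62 CPM, was above its P5 values of 1.02 to 1.55 CPM. Tfap2b had 47.5 and 119.2 CPM in E18 replicates 1 and 3. In E18 replicate 4 and at P5 most of the amacrine sum was Gad2 and Slc6a9, named after their values were seen. Gad2 had 4.13 CPM in E18 replicate 4 and 8.01 to 13.2 CPM at P5, and Slc6a9 7.68 CPM and 7.67 to 9.42 CPM. Neither passed the test described below. Glial markers, led by Glul, summed to 322 to 354.5 CPM at E18 and 243.8 to 284.9 CPM at P5. Oligodendrocyte markers, led by Mbp, summed to 70.8 to 73.5 CPM at E18 and 35.6 to 59.4 CPM at P5. Vascular markers, led by Kdr, were 71.2, 63.9 and 15.3 CPM in E18 replicates 1, 3 and 4 against 10.7 to 15.2 CPM at P5. Bipolar markers, led by Prkca, were lower at E18, at 46.7 to 54.6 CPM against 69.0 to 96.6 CPM. In bulk RNA, fewer cells of a type and less RNA per cell cannot be told apart.

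The sequences of 4 members are shown for the features for which these RNAs or their classes are known, and the feature was found in 3 of them. Malat1 is a transcript of 6983 bases with 1 exon (mm10 chromosome 19, 5795690 to 5802672, minus strand). Its end is not made by polyadenylation: RNase P cuts the primary transcript in front of a tRNA-like RNA, and the new end is protected by a triple helix of a pair of U-rich tracts with an A-rich tract. The stretch that holds these parts, at chr19:5795922-5796073 on the minus strand, is shown with the U-rich tracts and the A-rich tract in capitals, followed by the tRNA-like part in lower case.
Malat1: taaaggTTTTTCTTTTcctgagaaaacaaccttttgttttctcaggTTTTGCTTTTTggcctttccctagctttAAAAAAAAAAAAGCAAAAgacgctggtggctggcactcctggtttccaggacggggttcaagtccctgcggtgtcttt
The first U-rich tract began at base 6606 of the transcript, the second at base 6646, and the A-rich tract, with a run of 12 A, covered bases 6674 to 6691.

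Miat (chromosome 5, 112213228 to 112229395, minus strand) is known for copies of ACTAAC, a repeat that resembles the intron branch point and is bound by the splicing factor Sf1. The RefSeq-paired transcript of 8758 bases held 11 copies on its own strand, 6 of them preceded by T to give the 7-base branch point form, all in exon 7 and between bases 4539 and 6449. Of 7040 annotated transcripts of at least 5000 bases, 13 from 9 genes (0.185%) held at least 11 copies, and the median was 1. The densest groups, at chr5:112217314-112217379 and chr5:112216757-112216807 on the minus strand, are shown with the copies in capitals.
Miat group 1: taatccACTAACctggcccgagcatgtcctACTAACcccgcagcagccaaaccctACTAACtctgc
Miat group 2: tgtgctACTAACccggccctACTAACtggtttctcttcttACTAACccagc
The other 8 members held 0 or 1 copy each.

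**Figure D1:**
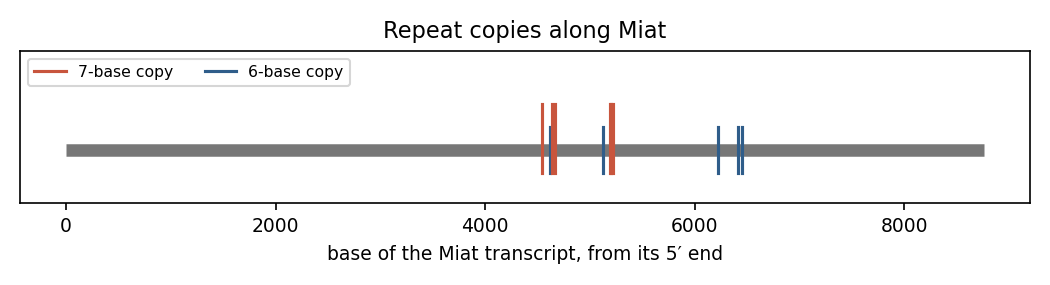
Copies of the repeat along the Miat transcript of 8758 bases, with the base counted from the 5′ end on the horizontal axis, tall red lines for 7-base copies and short blue lines for 6-base copies. All 11 copies lie between bases 4539 and 6449.

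Many snoRNA host genes start, like genes of ribosomal proteins, with a 5′ terminal oligopyrimidine tract (5′ TOP), a C followed by pyrimidines. Windows from 20 bases before to 30 bases from the RefSeq start (GRCm38.p6) are shown for a start of Gas5, at chr1:161035146-161035195, and for Snhg1, at chr19:8723467-8723516, both on the plus strand. Capitals mark a C followed by at least 4 pyrimidines that begins within 5 bases of the start, on the transcribed strand.
Gas5 start 2: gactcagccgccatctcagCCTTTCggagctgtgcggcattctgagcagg
Snhg1: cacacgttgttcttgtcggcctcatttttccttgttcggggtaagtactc
The second Gas5 start held such a run of 6 pyrimidines, and the Snhg1 window held none by this definition. The first Gas5 start and Snhg11 held none either. Among members that are not snoRNA hosts, Miat held a run of 7 and a start of Dlx6os1 a run of 5, while Malat1 held none. Of all 32851 promoter windows, 6027 held one, as did those of 8 of the 18 snoRNA host genes with a RefSeq window. The first is a share of windows and the second a count of genes, in which any window with a run sufficed. In Snhg9 and Snhg10, named after their values were seen, the run of 5 began 5 bases before the start and ended before it. RefSeq windows were matched for 6 of the 9 members.

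The 9 members spanned the whole range of detection in these cells. Levels of different genes were compared as CPM per kilobase of the annotated transcript, on a linear scale. At E18 the order was Malat1 (2211 ± 196, mean ± SD, n = 3), Snhg11 (150.9 ± 25.1), Miat (135.7 ± 7.94), Snhg1 (102.1 ± 4.32), Gas5 (91.3 ± 2.95), Rmst (12.4 ± 0.455), Neat1 (0.406 ± 0.0756), Pantr1 (0.205 ± 0.034) and Dlx6os1 (0.00281 ± 0.00291). At P5 it was the same except that Gas5 (61.3 ± 11.2) stood above Snhg1 (51.6 ± 12.2). The values of Snhg11 and Miat overlapped at E18 and those of Gas5 and Snhg1 at P5, so that the order of these neighbors is not beyond their spread. Reads were counted on RefSeq genes, and which exons entered each count is not stated. The annotated transcript whose length was used for Gas5 is an intron-retaining form of 2556 bases. Over the longest spliced form of 665 bases its E18 level became 351.0, which would place it second. The transcript whose length was used for Neat1 is the short form of 3004 bases. Over the long form of 20771 bases its E18 level became 0.0588, below Pantr1.

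**Figure D2:**
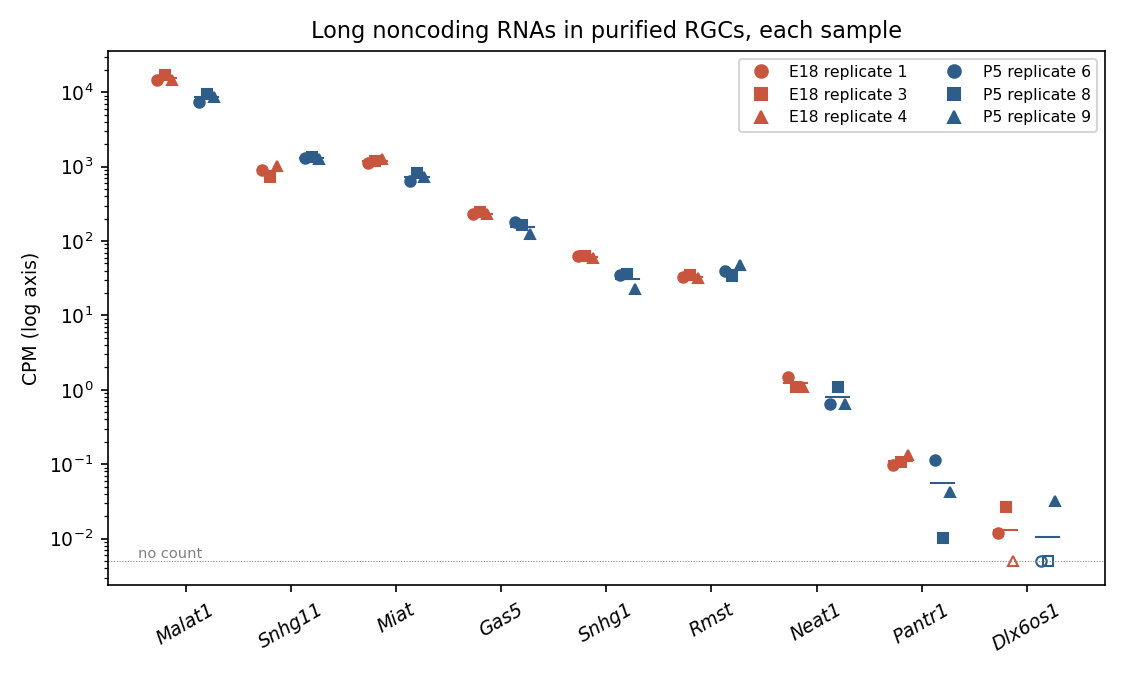
CPM of each member in each sample on a log axis, with E18 samples in red, P5 samples in blue, a horizontal bar at each age's mean, and open symbols for samples with no count. Malat1 sits at 7478 CPM or above in all 6 samples and Dlx6os1 at 0.0319 CPM or below.

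Between the ages, 4 members were higher at E18 (Malat1, Miat, Snhg1 and Gas5), 1 was lower (Snhg11), 2 did not pass the test (Neat1 and Rmst) and 2 were too low to be tested (Pantr1 and Dlx6os1). Each of the 16449 genes above edgeR's filter on low counts was tested by its quasi-likelihood method, and a gene was called where the Benjamini-Hochberg adjusted p was under 0.05. It called 43.4% of all genes, 20.8% higher and 22.5% lower at E18, so that 5 of 7 tested members called is read against a large change between the ages. Counts called in the related gene lists below are read against the same shares. Samples of the ages did not overlap in CPM for 5 of the 7 tested members and for 56.1% of all tested genes. The median log2 fold change, E18 over P5, was 0.61 over the 7 tested members and 0.0047 over all genes. Among 785 tested genes with a noncoding RefSeq accession, 25.1% were higher at E18 and 14.4% lower. This set follows the listed accession alone, so it can include coding genes and leaves out noncoding genes with none listed.

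**Figure D3:**
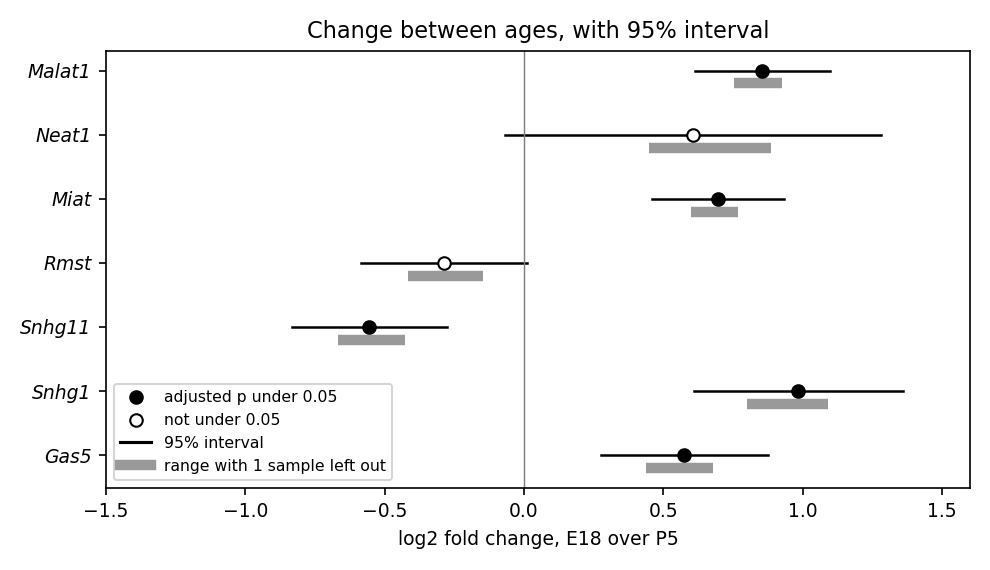
Log2 fold change, E18 over P5, of the 7 tested members on the horizontal axis, with filled points for adjusted p under 0.05, thin lines for the 95% interval and grey bars for the range when any 1 sample is left out. Malat1, Miat, Snhg1 and Gas5 lie to the right of 0 throughout and Snhg11 to the left, while the intervals of Neat1 and Rmst cross 0.

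Malat1 was the most counted RNA in all 6 libraries and took a larger share at E18. It had 14737, 17016 and 14559 CPM in E18 replicates 1, 3 and 4, and 7478, 9553 and 8558 CPM in P5 replicates 6, 8 and 9. The ages did not overlap, and every E18 library was above every P5 library. The part of other cell types in the Malat1 difference was not tested. Of all counted reads, Malat1 took 1.42% to 1.67% at E18 and 0.753% to 0.962% at P5. The difference was 1.81-fold, a log2 fold change of 0.86 with a standard error of 0.107, a 95% interval of 0.61 to 1.10 and an edgeR adjusted p of 0.000694. The protein-coding gene Frmd8, at 47.0 kb, had a log2 fold change of -0.18 and did not pass the test (edgeR adjusted p = 0.415).

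Other RNAs that carry no poly(A) tail were higher at E18 as well, and this is given beside Malat1 because the labels name polyA RNA whereas the protocol names removal of ribosomal RNA. Of the 6 in the table, 4 passed the test upward and 0 downward, with a median log2 fold change of 0.91. Rpph1, the RNA subunit of the RNase P that cuts Malat1, had 2971, 2548 and 3431 CPM in the E18 samples and 1214, 1742 and 1633 CPM in the P5 samples. Its log2 fold change of 0.96 (SE 0.154, edgeR adjusted p = 0.00181) was close in size to that of Malat1. Rmrp, the RNA of RNase MRP, was higher at E18 by 0.85 on the log2 scale, and the telomerase RNA Terc by 1.59. The brain cytoplasmic RNA Bc1 was higher by 1.44 and was below 1 CPM at E18. Rn45s, the ribosomal precursor that the depletion removes, ran from 1478 to 2939 CPM at E18 and from 947.1 to 3262 CPM at P5, and the ages overlapped (log2 fold change 0.16, edgeR adjusted p = 0.77). The vault RNA Vaultrc5 had a log2 fold change of -0.25 and did not pass (edgeR adjusted p = 0.409). The part of RNA selection in the Malat1 difference was not tested.

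**Figure D4:**
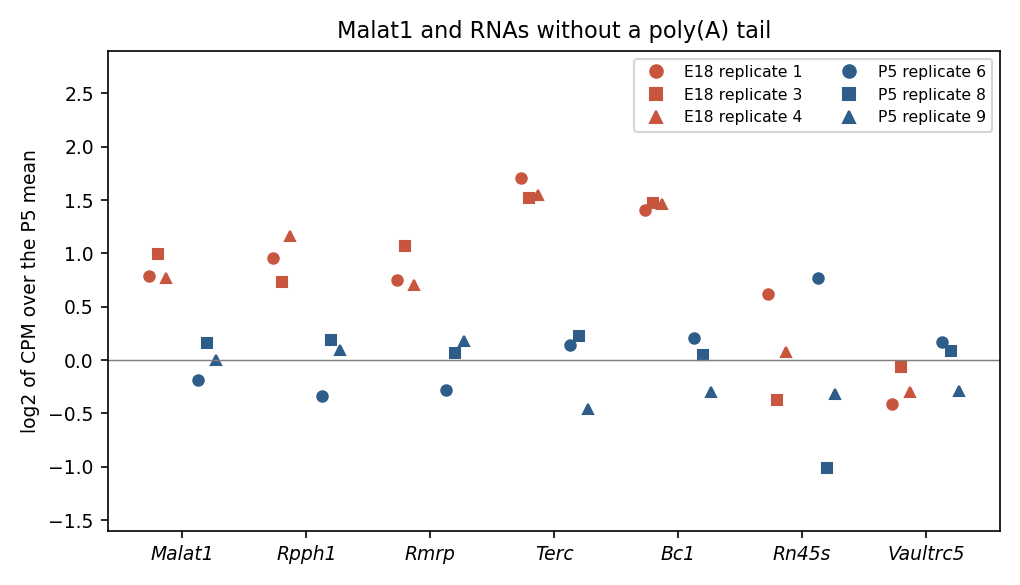
Log2 of each sample's CPM over the P5 mean of the same gene, for Malat1 and the 6 RNAs without a poly(A) tail, with E18 samples in red and P5 samples in blue. E18 samples lie above P5 samples for Malat1, Rpph1, Rmrp, Terc and Bc1, and the ages overlap for Rn45s and Vaultrc5.

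Transcripts of the proteins that cut or modify the Malat1 end showed little of this. Of 12 listed, 1 was higher and 1 lower at E18, and the median log2 fold change was -0.23. Mettl16, a methyltransferase that binds the Malat1 triple helix, had 38.6 ± 0.962 CPM at E18 and 28.7 ± 4.37 CPM at P5 (mean ± SD, n = 3), a log2 fold change of 0.43 (SE 0.121, edgeR adjusted p = 0.0212). Rpp25, a protein subunit of RNase P and RNase MRP, had 2.35 ± 0.217 CPM at E18 and 4.18 ± 1.28 CPM at P5, a log2 fold change of -0.83 (SE 0.246, edgeR adjusted p = 0.0253). The Mettl16 call was lost without any E18 replicate or without P5 replicate 9, when 0 genes of the list were higher. The count of lower genes ran from 0, without E18 replicate 1 or 3 or P5 replicate 6 or 9, to 5 without P5 replicate 8.

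Transcripts of proteins of the nuclear speckle, where Malat1 resides, were higher at E18 in most cases. Of 25 listed and tested, 19 were higher, 0 were lower and 6 did not pass, with a median log2 fold change of 0.40 against 0.0047 over all genes. Srrm1, a splicing coactivator, had the largest excess at E18 in this list, with 54.8 ± 8.25 CPM at E18 and 30.2 ± 4.31 CPM at P5 (log2 fold change 0.86, SE 0.145, edgeR adjusted p = 0.00234). The count of 19 fell to 12 without E18 replicate 1 and to 9 without E18 replicate 3.

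Neat1 was scarce in RGCs and its difference between ages did not pass the test. The libraries held 123, 123 and 98 Neat1 reads at E18 and 58, 108 and 61 at P5, which is 1.48, 1.10 and 1.08 CPM against 0.654, 1.10 and 0.648 CPM. P5 replicate 8 lay within the E18 range and the ages overlapped. The log2 fold change was 0.61, with a standard error of 0.297, a 95% interval of -0.07 to 1.28 and an edgeR adjusted p of 0.129. Without P5 replicate 8 it was 0.89 and passed (edgeR adjusted p = 0.0278). Neat1 lies on the minus strand of chromosome 19 (5824708 to 5845478), with Frmd8 at 4.22 kb, and the table gives no separate value for its long form, which alone builds paraspeckles.

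The log2 ratio of Neat1 to Malat1 reads within a library does not depend on scaling. It was -13.27, -13.92 and -13.71 at E18 and -13.47, -13.08 and -13.68 at P5. The ages overlapped, and the difference of -0.22 gave p = 0.4 in an exact two-sided permutation test, whose smallest possible p with 3 samples against 3 is 0.1.

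Transcripts of paraspeckle proteins were higher at E18 for 11 of 16 listed genes and lower for 0, with a median log2 fold change of 0.45. Hnrnpa1, an RNA-binding protein of paraspeckles and of splicing, had the largest excess at E18 in this list, with 32.7 ± 3.79 CPM at E18 and 12.4 ± 2.81 CPM at P5 (log2 fold change 1.40, SE 0.175, edgeR adjusted p = 0.000709). The count of 11 fell to 6 without E18 replicate 3 and to 7 without P5 replicate 6.

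Miat ranked between the 48th and the 51st most counted gene at E18 and between the 96th and the 143rd at P5. It had 1124, 1178 and 1262 CPM in E18 replicates 1, 3 and 4 and 645.2, 819.0 and 732.9 CPM in P5 replicates 6, 8 and 9. The highest Miat value at E18 was in replicate 4, the library with the lowest amacrine marker sum, and the ages did not overlap. The part of amacrine cells in the Miat values was not tested. The difference was 1.62-fold, a log2 fold change of 0.70 with a standard error of 0.104, a 95% interval of 0.46 to 0.93 and an edgeR adjusted p of 0.00137. The nearest protein-coding gene after it, Cryba4 at 17.1 kb, a lens crystallin, was below 1 CPM and lower at E18 (log2 fold change -2.90, SE 0.673, edgeR adjusted p = 0.00921).

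Transcripts of the proteins known to bind Miat were also higher at E18. Celf3, a neuronal splicing factor that binds Miat, had 127.7, 124.7 and 136.4 CPM at E18 and 54.5, 50.8 and 52.0 CPM at P5 (log2 fold change 1.31, SE 0.0855, edgeR adjusted p = 7.66e-05). Sf1, which binds the branch point and the repeats shown above, had 95.4, 93.5 and 92.8 CPM against 57.8, 68.5 and 47.0 CPM (log2 fold change 0.70, SE 0.132, edgeR adjusted p = 0.00372). Qk, an RNA-binding protein abundant in glia and progenitors, had 147.3, 204.0 and 81.8 CPM against 56.2, 70.9 and 42.9 CPM (log2 fold change 1.35, SE 0.305, edgeR adjusted p = 0.00816). Qk was highest in E18 replicate 3 and lowest at that age in E18 replicate 4, the order of the amacrine marker sums, whose part in it was not tested.

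Rmst was slightly lower at E18 and did not pass the test. It had 32.9, 34.5 and 32.1 CPM in E18 replicates 1, 3 and 4 and 39.3, 34.1 and 48.2 CPM in P5 replicates 6, 8 and 9, so that P5 replicate 8 lay within the E18 range. The log2 fold change was -0.29, with a standard error of 0.132, a 95% interval of -0.59 to 0.01 and an edgeR adjusted p of 0.108. Without P5 replicate 8 it was -0.42 and passed (edgeR adjusted p = 0.0136). Rmst stands far from coding genes (chromosome 10, 92071037 to 92165170, minus strand): Tmpo lies 890 kb before it and Nedd1 520 kb after it. Tmpo, which encodes a protein of the nuclear lamina, had a log2 fold change of 0.93 (edgeR adjusted p = 0.00168), the opposite sign, and Nedd1 one of 0.23 (edgeR adjusted p = 0.261).

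The partners of Rmst behaved otherwise. Sox2, the transcription factor that Rmst binds in neural precursors, had 3789, 7774 and 86 reads in E18 replicates 1, 3 and 4 against 70, 146 and 78 at P5. The ages overlapped because E18 replicate 4 was at the P5 level, and the fitted log2 fold change of 5.22 (SE 1.19, edgeR adjusted p = 0.0084) rests on E18 replicates 1 and 3. Amacrine markers were high in the same 2 E18 libraries (97.1 and 199.6 CPM against 14.7 CPM in replicate 4), and their part in the Sox2 difference was not tested. Rmst itself varied between 32.1 and 34.5 CPM across these libraries. Hnrnpa2b1, an RNA-binding protein that joins Rmst with Sox2, had 289.2, 278.5 and 262.9 CPM at E18 and 172.8, 172.1 and 139.0 CPM at P5 (log2 fold change 0.78, SE 0.106, edgeR adjusted p = 0.000948).

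Snhg11 was the member that was lower at E18. It had 909.2, 727.0 and 1019 CPM in E18 replicates 1, 3 and 4 and 1287, 1364 and 1252 CPM in P5 replicates 6, 8 and 9. The ages did not overlap, and the lowest value was in E18 replicate 3, the library with the highest amacrine marker sum. The part of amacrine cells in the Snhg11 values was not tested. The log2 fold change was -0.56, with a standard error of 0.122, a 95% interval of -0.83 to -0.28 and an edgeR adjusted p of 0.00733. It was -0.43 without E18 replicate 3 and -0.67 without E18 replicate 4. Snhg11 (chromosome 2, 158375638 to 158386145, plus strand) was counted under an accession then listed as coding. Its flanking genes Lbp and Ralgapb had log2 fold changes of 0.03 and -0.17 and did not pass (edgeR adjusted p = 0.961 and 0.123).

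Snhg1 and Gas5, hosts of several C/D box snoRNAs each, were both higher at E18. The spliced RNAs of such hosts are translated briefly and are degraded by nonsense-mediated decay. Snhg1 had 63.3, 63.3 and 58.8 CPM in E18 replicates 1, 3 and 4 and 34.5, 36.3 and 22.8 CPM in P5 replicates 6, 8 and 9. It was 1.98-fold higher at E18, a log2 fold change of 0.99 with a standard error of 0.166, a 95% interval of 0.61 to 1.36 and an edgeR adjusted p of 0.00227. Gas5 had 228.8, 242.1 and 229.4 CPM at E18 and 181.5, 163.0 and 125.3 CPM at P5, a log2 fold change of 0.58 with a standard error of 0.131, a 95% interval of 0.28 to 0.87 and an edgeR adjusted p of 0.0085. For both genes the ages did not overlap and P5 replicate 9 was the lowest library.

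Reads of Snhg1 relative to Gas5 were more frequent at E18 within each library. The log2 ratio was -1.85, -1.94 and -1.96 at E18 and -2.39, -2.17 and -2.46 at P5, without overlap. The difference of 0.42 gave p = 0.1 in an exact two-sided permutation test, the smallest that 3 samples against 3 allow.

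The genes beside Snhg1 and Gas5 moved less. Slc3a2, an amino acid transporter subunit that starts 106 bases before Snhg1, had 80.8 ± 2.84 CPM at E18 and 69.1 ± 0.144 CPM at P5 (log2 fold change 0.23, SE 0.0807, edgeR adjusted p = 0.0496), and Wdr74 at 9.38 kb did not pass (log2 fold change 0.09, edgeR adjusted p = 0.541). Gas5 (chromosome 1, 161034422 to 161038539, plus strand) overlaps the coding gene Zbtb37 on the opposite strand, and since no strand setting is stated for the counting, reads of these genes cannot be told apart with certainty. Zbtb37 had a log2 fold change of 0.12 and Serpinc1, at 28.6 kb, one of 0.50, with no call (edgeR adjusted p = 0.484 and 0.16). Nr3c1, the glucocorticoid receptor that Gas5 can bind, had 8.26, 3.92 and 1.67 CPM at E18 and 2.98, 3.49 and 3.82 CPM at P5, with overlap (log2 fold change 0.43, SE 0.469, edgeR adjusted p = 0.489).

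Of 11 other snoRNA host genes in the table, 4 were higher at E18, 2 were lower and 5 did not pass, with a median log2 fold change of 0.23. Over all tested genes, 20.8% were higher at E18 and 22.5% lower. Dancr had the largest excess at E18, with 5.46, 6.01 and 5.73 CPM at E18 and 2.21, 3.69 and 2.33 CPM at P5 (log2 fold change 1.06, SE 0.228, edgeR adjusted p = 0.00646). Snhg4 had the largest excess at P5, with 6.86, 6.64 and 6.48 CPM at E18 and 7.65, 9.12 and 10.2 CPM at P5 (log2 fold change -0.43, SE 0.15, edgeR adjusted p = 0.0448). The 2 lower calls were both lost without any E18 replicate or without P5 replicate 9, and 1 was lost without P5 replicate 6. The count of higher genes was 3 or 4 whichever sample was left out.

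Of the snoRNAs that these hosts release, 2 had a row. Snord22, from an intron of Snhg1, had 10.3, 10.3 and 7.40 CPM at E18 and 6.78, 6.44 and 5.21 CPM at P5, a log2 fold change of 0.60 (SE 0.182, edgeR adjusted p = 0.0269) that did not pass without E18 replicate 1 or 3 or without P5 replicate 6 or 9. Snord47, from an intron of Gas5, had 0.952, 1.03 and 0.839 CPM at E18 and 1.57, 0.782 and 0.872 CPM at P5, with overlap (log2 fold change -0.19, SE 0.313, edgeR adjusted p = 0.649). Unspliced host RNA can add to either row, and its part was not tested.

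Among genes of 13 snoRNP proteins, which bind and guide snoRNAs, 4 were higher and 0 lower, with a median log2 fold change of 0.12. The shares over all tested genes were 20.8% higher and 22.5% lower at E18. Fbl, the methyltransferase of C/D box snoRNPs, had 20.1 ± 0.971 CPM at E18 and 12.9 ± 0.709 CPM at P5 (log2 fold change 0.64, SE 0.107, edgeR adjusted p = 0.00221). Among 14 nonsense-mediated decay factors, 5 were higher and 0 lower, with a median of 0.27. Upf2, a core factor of this decay, had 58.9 ± 3.05 CPM at E18 and 38.5 ± 9.08 CPM at P5 (log2 fold change 0.62, SE 0.155, edgeR adjusted p = 0.013). The count of 5 ran from 1, without E18 replicate 3 or without P5 replicate 6, to 8 without P5 replicate 8, and was 2 without E18 replicate 1, E18 replicate 4 or P5 replicate 9.

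**Figure D5:**
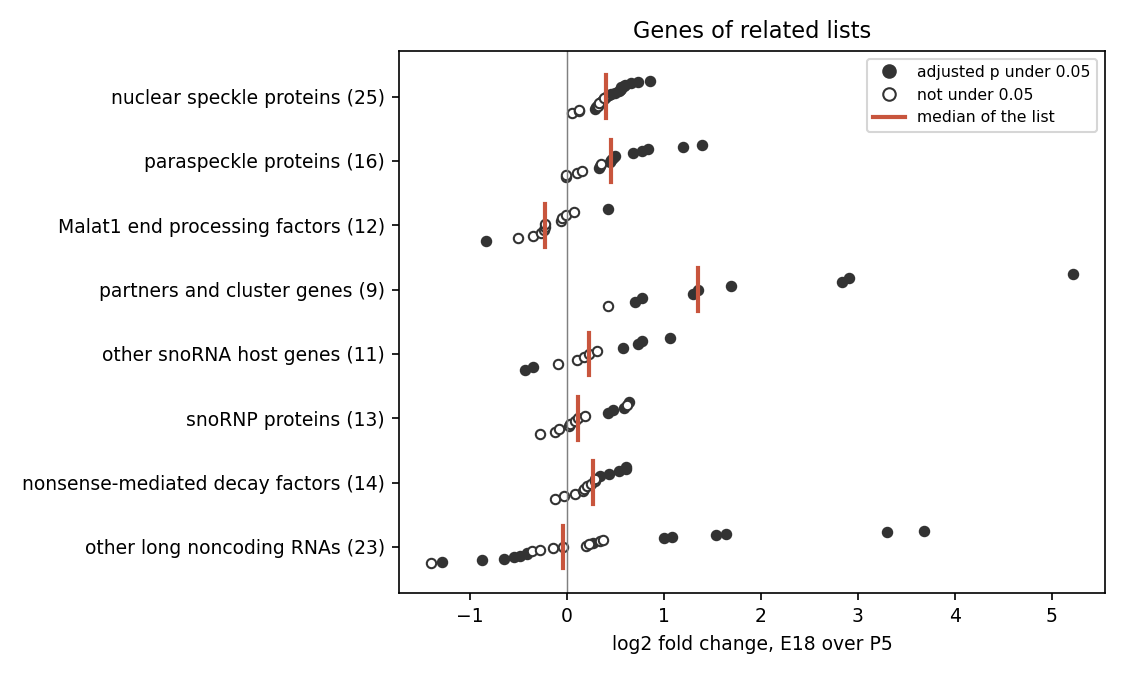
Log2 fold change, E18 over P5, of each tested gene in 8 lists related to the members, with the number tested after each name, filled points for adjusted p under 0.05, open points otherwise, and a red line at each list's median. Most genes of nuclear speckle and paraspeckle proteins lie above 0, whereas other long noncoding RNAs spread to both sides.

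Pantr1 and Dlx6os1, the members beside homeobox genes, were near the limit of detection and did not pass the expression filter. Pantr1 (chromosome 1, 42590782 to 42694842, minus strand) had 8, 12 and 12 reads at E18 and 10, 1 and 4 at P5, or 0.0964, 0.107 and 0.133 CPM against 0.113, 0.0102 and 0.0425 CPM. The ages overlapped through P5 replicate 6, and with no expression filter its log2 fold change was 1.04 with a standard error of 0.711 (edgeR adjusted p = 0.3). Its neighbor Pou3f3 (Brn1), a transcription factor of the POU family that starts 926 bases away, had 62, 50 and 60 reads at E18 and 21, 20 and 12 at P5 without overlap (log2 fold change 1.70, SE 0.363, edgeR adjusted p = 0.00638). The log2 ratio of Pantr1 to Pou3f3 was -2.88, -2.01 and -2.28 at E18 and -1.03, -3.77 and -1.47 at P5. Its difference of -0.30 gave p = 0.8 in an exact two-sided permutation test and changed sign without P5 replicate 6 or 9. Tmem182, the coding gene on the other side at 1730 kb, was below 1 CPM and lower at E18 (log2 fold change -1.35, edgeR adjusted p = 0.0362).

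Dlx6os1 (chromosome 6, 6820189 to 6871592, minus strand) is transcribed antisense across Dlx6 and is known from interneurons of the forebrain. It had 1, 3 and 0 reads at E18 and 0, 0 and 3 at P5. A count of 0 allows up to 3 reads, or 0.0331 CPM in E18 replicate 4, 0.0338 CPM in P5 replicate 6 and 0.0305 CPM in P5 replicate 8, so that no library was above this floor and no fold is given. Such limits cover counting error only. Dlx5, at 6.21 kb, had no read in any library, and Dlx6 had 1 read in each E18 library and 0 at P5. The log2 ratio of Dlx6os1 to Dlx6, both at the floor, differed by -1.06 between the ages (exact two-sided permutation p = 0.6). Without strand, reads of this antisense RNA and of Dlx6 cannot be told apart.

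Another homeobox pair of the family, Dlx1 and Dlx2, was detected. Dlx1 had 1.16, 0.954 and 0.740 CPM at E18 and 0.147, 0.163 and 0.0850 CPM at P5 (log2 fold change 2.84, SE 0.355, edgeR adjusted p = 0.000697). Dlx2 had 1.16, 0.571 and 0.630 CPM at E18 and 0.135, 0.163 and 0.0106 CPM at P5 (log2 fold change 2.91, SE 0.641, edgeR adjusted p = 0.0073). Both genes were above every P5 library in each E18 library. In E18 replicate 4 the amacrine marker sum was below the P5 range but Tfap2b was above it, and the part of amacrine cells in these differences was not tested. Of the 11 partners and cluster genes, 9 were tested, of which 8 were higher, 0 were lower and Nr3c1 did not pass.

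Pearson's r of log2 CPM (0.5 CPM added) over the 6 samples, which share library and age, describes which genes of at least 10 CPM had the pattern most like each member. The nearest to Malat1 were Cdc34 (0.998) and Dmap1 (0.997), and 507 of 9724 genes exceeded 0.95. Those nearest to Miat were Kdm4b (0.999) and Cabin1 (0.998). Snhg1 was followed most closely by Utp14b and Rps12 (both 0.999), and 864 genes exceeded 0.95. Utp14b and Rps12, both of ribosome synthesis or structure, had log2 fold changes of 1.76 and 0.78. For Gas5 these genes were Serf1 and Ibtk (both 0.996). For Snhg11 they were Pcdha3 (0.996) and Tex261 (0.995), for Rmst Coq10a (0.998) and Mylip (0.994), and for Neat1 Tmem136 (0.995) and Hes6 (0.991). Pantr1 was nearest to Lsm10 and Gabarap (both 0.991) and Dlx6os1 to Ensa (0.962) and Cxx1c (0.951), on counts too low to order samples. Between members, r was 0.979 for Snhg1 with Gas5, 0.974 for Malat1 with Miat and -0.906 for Malat1 with Snhg11.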

How the data were processed

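RGC RNA of 3 E18 and 3 P5 samples was freed of ribosomal RNA by the authors and sequenced from both ends, 100 bases each. They mapped the reads to mm10 by STAR and used HT-seq to count them on RefSeq genes. The submitters' processing notes also list CASAVA 1.8.2. They deposited raw counts per gene, normalized counts, which are a signal after scaling for depth, and their own log2 fold changes, p-values and a rank score from EdgeR. Of the deposited values, the raw counts alone were used here. Strand and multi-mapped reads are not described in the sources used here. The name of the column used for E18 replicate 1 holds a 2 and a 5 as well, and 0 value columns belonged to no sample of the series. Chi-square per degree of freedom between samples of an age was 30.5 to 141, so none was a repeat of another library.

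Counts were TMM-normalized, and 16449 genes that passed filterByExpr entered a quasi-likelihood F-test (edgeR 4.0.16, R 4.3.3), in which p was adjusted over all of them by Benjamini-Hochberg and called under 0.05. CPM uses TMM-scaled library sizes, which counted 81213639 to 114512853 reads before scaling. Fold changes are E18 over P5. Standard errors and 95% intervals come from the fit. The scripts were tested on simulated data. Within-library ratios had 0.5 added to each count. Coordinates and transcripts are from GENCODE on mm10, and start windows from RefSeq on GRCm38.p6. The members and lists were chosen with earlier results of these data known. Named genes are the members, the partners and cluster genes, the nearest coding gene on each side, 2 most similar genes a member and Rn45s. Also named are the largest excess at E18 and at P5 past the threshold in each other list, and the most abundant gene of a marker list. Any other is said to have been named after its values were seen. Some single genes under this rule are not reported here. The alternatives tried were DESeq2 1.42.0, the likelihood ratio and exact tests in edgeR, other scalings and filters, and leaving out each sample.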

Additional observations from a re-analysis of the deposited data

How the results depend on the processing

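No paired analysis was possible because the ages share no replicate number. None of the 9 other choices of test, scaling and filter changed the call or direction of a tested member, and the scalings moved the median of all genes by less than 0.1. With 1 sample left out, the genes called ranged from 4575 (without E18 replicate 3) to 8796, those higher from 2137 to 4135 and those lower from 2438 to 4661, against 7135, 3426 and 3709. Members lower at E18 ranged from 1 to 2 and members higher from 4 to 5, as Neat1 (0.89) and Rmst (-0.42) passed without P5 replicate 8. The log2 ratio of Pantr1 to Pou3f3 ranged from -1.14 to 0.23 and was 0.01 without P5 replicate 9. Leaving out samples gave 0 to 2 other host genes lower and 4 to 7 other long noncoding RNAs lower. Genes of paraspeckle proteins higher were 6 to 12, and those of speckle proteins 9 to 21. Genes of end processing factors were 0 to 1 higher and 0 to 5 lower, and those of decay factors 1 to 8 higher. Genes of snoRNP proteins lower were 0 to 1, and hosted snoRNAs higher 0 to 1. Other host genes lower were 1 with upper-quartile scaling and 0 with no filter, with the exact test and with the likelihood ratio test. End processing factors lower were 2 with library size only and with DESeq2. Partners higher were 5 with a filter of 1 CPM, under which fewer genes were tested. The causes were not tested. Lengths of other transcripts, chosen after seeing the data, gave 351.0 for Gas5 and 0.0588 for Neat1 per kilobase at E18. Dlx6os1 and Pantr1 are limited by depth, with 4 and 32 reads over the E18 libraries and 3 and 15 over the P5 libraries.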

Other observations

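Of 28 other long noncoding RNAs in the table, 23 were tested, of which 7 were higher at E18, 7 lower and 9 not past the threshold, with a median log2 fold change of -0.04. Over all tested genes, 20.8% were higher at E18 and 22.5% lower. Without E18 replicate 3, 4 were lower. Sox2ot, which spans Sox2, had the largest excess at E18 in this list (log2 fold change 3.68, SE 1.04, edgeR adjusted p = 0.0208). It had 2853, 8890 and 120 reads in E18 replicates 1, 3 and 4 against 233, 352 and 259 at P5, so that the ages overlapped. E18 replicate 4, at 1.33 CPM, was below the P5 values of 2.63 to 3.58 CPM, and the fitted difference rests on E18 replicates 1 and 3. The part of other cells in it was not tested. Mirg had the largest excess at P5, with 12.0 ± 1.93 CPM at E18 and 29.2 ± 7.39 CPM at P5 (mean ± SD, n = 3, log2 fold change -1.29, SE 0.193, edgeR adjusted p = 0.00139).

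Several genes of this list were named after their values were seen. Meg3 and Rian come, like Mirg, from the maternally expressed noncoding genes of the imprinted Dlk1-Dio3 region, and both were lower at E18. Meg3 had 2278 ± 427 CPM at E18 and 3573 ± 510 CPM at P5 (log2 fold change -0.65, SE 0.148, edgeR adjusted p = 0.00835). Rian had 1432 ± 209 CPM at E18 and 2092 ± 200 CPM at P5 (log2 fold change -0.55, SE 0.121, edgeR adjusted p = 0.00734). Six3os1 and Vax2os, transcribed beside the homeobox genes Six3 and Vax2, were higher at E18. Their log2 fold changes were 1.09 (SE 0.117, edgeR adjusted p = 0.000371) and 1.00 (SE 0.149, edgeR adjusted p = 0.00137). Mir17hg, the host of the miR-17 cluster, had 979, 1215 and 587 reads at E18 and 96, 154 and 28 at P5 (log2 fold change 3.30, SE 0.512, edgeR adjusted p = 0.00161). The summed level of 9 dividing cell markers was 73.1 to 309.4 CPM at E18 against 53.5 to 69.4 CPM at P5, but only 3 of them did not overlap between the ages, and Pcna made up 47.2 of the 73.1 CPM in E18 replicate 4. Their part in Mir17hg was not tested.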
